A study of Mus musculus with 10 samples.

Results

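The 32 mouse genes described here encode the machinery that brings secretory and membrane proteins to the endoplasmic reticulum (ER), passes them through its membrane and removes their signal peptides. They were chosen by symbol and fall into 6 complexes or routes: the signal recognition particle and its receptor with 9 genes, Sec61 with Sec62 and Sec63 with 6, the translocon-associated protein complex (TRAP, the Ssr genes) with 4, signal peptidase with the signal peptide peptidase Hm13 with 6, Tram with 2 and the tail-anchor route with 5. All 32 were found among the 26599 genes of the RNA-seq files, Hm13 under its older symbol H13.

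A protein bound for secretion carries a signal peptide that the signal recognition particle binds as it leaves the ribosome. The particle's receptor takes the ribosome to the Sec61 channel in the ER membrane, where TRAP and Tram assist insertion and signal peptidase trims the chain on the lumenal side. Plasma cells are the antibody-secreting end stage of the B cell lineage, so this route handles most of what they export, whereas proteins anchored by a membrane segment at their tail bypass the particle and enter through a separate route.

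The study set naive B cells beside plasma cells from mice, and the values here come from 1 poly(A) RNA-seq library of each, both of strain C57BL/6 and genotype WT with no further agent named. The naive cells were splenic and sorted as CD23+ and IgD+. For the plasma library the labels conflict: the source field places the cells in an in vitro activation before the sort, the growth protocol describes splenocytes bound by anti-CD23 beads and then cultured, and the extraction protocol describes a bone marrow sort for CD138 that gated out B220, IgD, CD4, CD8, Gr1 and Ter119. No reading was assumed. The deposited values are kallisto's estimated counts and TPM, a measure of transcript abundance scaled by length and depth. They held 36995177 estimated counts in the naive and 43457786 in the plasma library. With 1 library per cell type no difference has a replicate check, and no test was made.

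Of the genes that mark naive B cells, Fcer2a, which encodes CD23, stood at 1062 TPM in the naive and 6.78 TPM in the plasma library, and Pax5, a B lineage transcription factor, at 346 and 15.7 TPM. The summed level of 8 plasma cell markers was 1077 TPM in the naive and 8050 TPM in the plasma library, of which Mzb1 held 290.02 and 3554 TPM and Jchain 509.9 and 3027 TPM. Sdc1, which encodes CD138, was lower in the plasma library, with 11.1 and 5.38 TPM, as were Slamf7, with 55.5 and 53.2 TPM, and Tnfrsf17, with 2.24 and 1.68 TPM. Immunoglobulin genes held 5.03% of naive and 34.8% of plasma TPM. Summed markers of other cells were higher in the naive library, at 91.3 against 3.75 TPM for 9 T and NK cell genes, 145 against 1.99 TPM for 8 myeloid genes, 81.8 against 2.46 TPM for 6 erythroid genes and 227 against 12.4 TPM for 5 stromal genes. The stromal sums were mostly Pecam1, at 166 and 11.7 TPM, and Vcam1, at 59.9 and 0 TPM. The stromal genes Cdh5, Col1a1 and Col3a1 were at 1.07 TPM or less in both libraries. In the plasma library Cd3e, Trbc2, Hba-a1, Hba-a2, Hbb-bs, Vcam1, Elane and Col3a1 were listed at 0. Elane, at 0.109 TPM, and Col3a1, at 0.0104 TPM, were also near 0 in the naive library. All 6 cell cycle genes were higher in plasma, with sums of 88.2 and 530.4 TPM. The Y-linked gene Eif2s3y was at 104 TPM in the naive library and 0 in the plasma library, while Xist was at 0.383 and 128 TPM, so the libraries differ in sex-linked transcripts as well as in cell type, and these cannot be told apart. The part of these marker differences in the results was not tested. In such bulk libraries a change in the share of cells and a change in RNA per cell cannot be told apart either.

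The Sec61 core, all 4 TRAP subunits, 4 of 5 signal peptidase genes, the signal recognition particle receptor and Hm13 were higher in the plasma library, while the tail-anchor route, Sec62, Sec63 and Tram1 were not called. Summed over the 32 genes, the level was 2260 TPM in naive and 5880 TPM in plasma cells, or 0.238% and 0.902% of the TPM outside immunoglobulin genes. Differences are given as a log2 ratio, plasma over naive, after adding 1 TPM to both levels, which pulls this ratio toward 0 in weakly expressed genes. The typical ratio of the 7495 genes that reached 5 TPM in each library, a median of -0.99, was subtracted from every gene to give its centred ratio. After this step weakly expressed genes are drawn toward 0.99, the centred ratio of a gene at 0 TPM in both libraries. Genes with a centred ratio of 1 or more were called higher and those with -1 or less lower, provided that either library reached 5 TPM. All 32 genes passed that level, Srp54a and Sec61g through the plasma library alone and Sec61a2 and Wrb through the naive library alone. Of the 32, 20 were higher, against 16.0% of the 10219 genes that passed, and 0 were lower, against 22.1%. On estimated counts without the added TPM, Wrb had a centred ratio of -1.08 in place of -0.72 and Sec61a2 -0.97 in place of -0.65. By the same measure Srp54a had 4.74 in place of 4.14 and Sec61g 3.89 in place of 3.45. Their median centred ratio was 2.11, with a range from -0.72 to 4.14, beside -0.23 over all genes that passed. The centring matters for the others: without it 18 of the 20 stayed at 1 or more and 3 genes, Sec61a2, Wrb and Bag6, were called lower, and all 12 genes outside the 20 had less TPM in plasma than in naive cells. Other scalings moved some of the 12 past the call: on estimated counts scaled with TMM factors, Srp14 had 1.11, Srp54b 1.20, Sec62 1.11, Sec63 1.37, Sec11a 1.43 and Tram1 1.36, while the 5 tail-anchor genes stayed under 1 in every alternative.

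**Figure D1:**
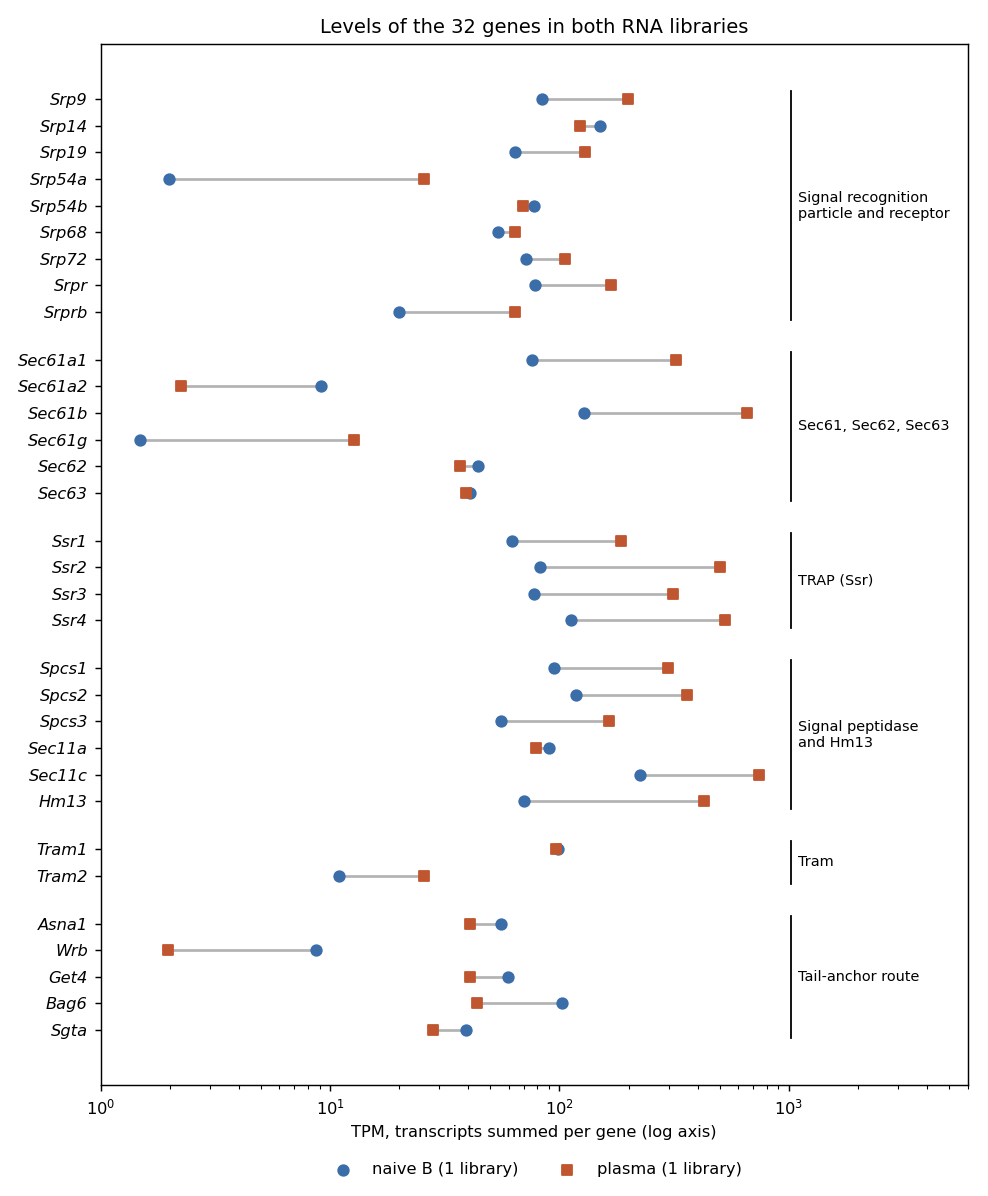
Level of each of the 32 genes in TPM, on a log axis, in the naive B library (circles) and the plasma library (squares), grouped by complex, with 1 library per cell type and no error bars. The TRAP genes lie between 62.3 and 112 TPM in naive and between 185 and 527 TPM in plasma cells, while the plasma squares of the 5 tail-anchor genes lie to the left of their naive circles.

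Promoter sequences are shown as a description. Xbp1 encodes a transcription factor of the unfolded protein response that binds ACGT-centred elements. Its level was 109 TPM in naive and 939 TPM in plasma cells. Whether Xbp1 has a part in the levels of the 32 genes was not tested. RefSeq promoters of build GRCm38.p6, from 250 bases before to 50 bases after the start site, were matched for 24 of the 32 genes. The ER stress element (CCAAT, 9 bases, CCACG), its second form (ATTGG, 1 base, CCACG) and TGATGNAA matched in 0 of the 24 on either strand. They matched in 0.137%, 0.0444% and 4.51% of all 27025 genes with a promoter. Among the 7021 of these that reached 5 TPM in either library, they matched in 0.185%, 0.0855% and 2.82%. TGACGTG, the core of the unfolded protein response element, matched in Hm13, on the reverse strand and past the start site, and in Srpr. These are 8.33% of the 24 genes, beside 2.22% of all genes with a promoter and 3.59% of those that reached 5 TPM in either library. Both promoters follow, 5′ to 3′ on the gene's strand, with the match in capitals.
Hm13, chr2:152669211-152669510, plus strand: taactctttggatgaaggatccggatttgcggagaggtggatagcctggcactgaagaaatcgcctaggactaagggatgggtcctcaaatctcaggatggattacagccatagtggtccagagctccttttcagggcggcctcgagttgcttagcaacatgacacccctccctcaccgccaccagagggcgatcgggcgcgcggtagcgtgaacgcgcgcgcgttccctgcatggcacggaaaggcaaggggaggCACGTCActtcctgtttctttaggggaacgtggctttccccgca
Srpr, chr9:35210953-35211252, plus strand: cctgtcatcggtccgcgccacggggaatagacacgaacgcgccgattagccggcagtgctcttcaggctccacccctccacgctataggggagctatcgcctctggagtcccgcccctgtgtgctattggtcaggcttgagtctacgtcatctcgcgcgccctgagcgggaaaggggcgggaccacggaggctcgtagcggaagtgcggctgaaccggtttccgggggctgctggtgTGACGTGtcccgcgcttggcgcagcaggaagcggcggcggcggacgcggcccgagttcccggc

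CCACGT, which can overlap the longer elements, matched in 9 of the 24 genes, or 37.5%, beside 9.39% of all 27025 genes with a promoter and 13.8% of the 7021 of them that reached 5 TPM in either library. The 9 were Srprb, Sec63, Ssr1, Ssr3, Spcs1, Hm13, Asna1, Get4 and Sgta, so genes called higher and genes not called both held it. The median GC content was 60.0% in the promoters of the 24 genes, 52.7% in all promoters and 60.7% in those of genes that reached 5 TPM. A match is a description of these letters and not of a bound site. The windows below, shown after the matches were seen, give a match in capitals with 15 bases on each side on the gene's strand. They cover first 4 genes called higher and then 3 that were not, where Asna1 has the match on the reverse strand. Ssr1 has a further match, and Sgta a further, overlapping one on the reverse strand. Hm13 and Get4 have no window here.
Ssr1, chr13:37994261-37994296, minus strand: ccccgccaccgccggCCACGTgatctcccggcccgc
Ssr3, chr3:65392723-65392758, minus strand: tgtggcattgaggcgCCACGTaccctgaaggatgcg
Spcs1, chr14:31001706-31001741, minus strand: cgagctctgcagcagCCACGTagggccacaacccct
Srprb, chr9:103202081-103202116, minus strand: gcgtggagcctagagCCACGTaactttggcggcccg
Sec63, chr10:42761459-42761494, plus strand: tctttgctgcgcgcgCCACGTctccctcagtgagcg
Sgta, chr10:81060435-81060470, minus strand: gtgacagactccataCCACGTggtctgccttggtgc
Asna1, chr8:85025285-85025320, minus strand: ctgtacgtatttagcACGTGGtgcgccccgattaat

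Within the signal recognition particle and its receptor 7 of 9 genes were called higher, with a median centred ratio of 1.99. Among the 7 is Srp54a, which passed the level through the plasma library alone and cannot be read singly. With the Srp54 copies summed as 1 gene, the median was 1.77. Without the receptor, 5 of 7 genes were higher, with a median of 1.55. Srp54 proteins bind the signal peptide and GTP. Srp9 and Srp14 form the pair that slows elongation, and their transcripts differed. Srp9 stood at 83.7 TPM in naive and 198 TPM in plasma cells, a centred ratio of 2.22, while Srp14 stood at 150 and 123 TPM, a ratio of 0.70. Srp19, which helps assemble the particle on its RNA, was at 63.9 and 129 TPM and had a ratio of 1.99. Srp68 and Srp72, which bind the RNA as a pair, were closer between the libraries. Srp68 was at 54.0 and 64.1 TPM with a centred ratio of 1.23, and Srp72 at 71.2 and 106 TPM with a ratio of 1.55. Without centring their ratios were 0.24 and 0.56, and they are the only 2 of the 20 that fell under 1 in any of the alternatives that keep the call at 1.

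The receptor anchors the particle to the ER membrane, and both its subunits were higher. Srpr, the GTPase that meets the particle, stood at 77.9 TPM in naive and 167 TPM in plasma cells, or 2.15 times as high. Its centred ratio was 2.08. Taken on estimated counts instead, with no pseudocount and no length scaling, the ratio was 2.16 with an interval of 2.12 to 2.21. Srprb, the membrane subunit, stood at 19.9 and 64.0 TPM, a ratio of 2.62. Of the 31-base words in the Srprb transcript, 29.4% also occur in an overlapping gene listed as Trf and named Gm20425 in GENCODE vM21, which was at 7.05 and 0 TPM. Summed with it, the ratio of Srprb was 2.20.

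The 3 Srp54 copies cannot be read singly. The gene listed as Srp54a had the largest ratio of the 32 genes, 4.14, from 1.99 TPM and 103 estimated counts in naive to 25.6 TPM and 2506 estimated counts in plasma cells. Srp54b stood at 77.3 and 69.2 TPM with a ratio of 0.83, and Srp54c, a further copy, at 62.2 and 48.9 TPM with a ratio of 0.65. Of the 31-base words in Srp54b, 59.5% also occur in Srp54c, and GENCODE vM21 gives other symbols to both gene IDs, while the ID listed as Srp54a is absent from that release. Summed, the 3 copies stood at 141 TPM in naive and 144 TPM in plasma cells, a centred ratio of 1.01.

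The 3 subunits of the Sec61 channel were higher in plasma cells, with a median centred ratio of 3.34, while its partners Sec62 and Sec63 had 0.73 and 0.93. Sec61a1, at chr6:88503579-88518905 on the minus strand of GRCm38, encodes the pore-forming subunit. It stood at 76.0 TPM in naive and 321 TPM in plasma cells, or 4.22 times as high. Its centred ratio was 3.05, and on estimated counts it was 3.13 with an interval of 3.09 to 3.18. Sec61b, a small tail-anchored subunit, stood at 128 and 657 TPM, with a ratio of 3.34. It shares 37.6% of its 31-base words with Gm10320, which was at 0 and 0.661 TPM. The other pore paralog, Sec61a2, went the other way in TPM, with 9.10 in naive and 2.25 in plasma cells and a centred ratio of -0.65. Sec61a2 overlaps Nudt5 on the opposite strand, and 34.7% of its words also occur there. Nudt5 stood at 28.3 TPM in naive and 34.4 TPM in plasma cells, and 18.1% of its own words occur in Sec61a2. Summed with Nudt5, which held most of the TPM, the centred ratio was 0.96.

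Sec61g, the gamma subunit, was listed at 1.48 TPM and 25.3 estimated counts in naive and at 12.7 TPM and 337 estimated counts in plasma cells, a centred ratio of 3.45. On estimated counts the ratio was 3.89, with the widest interval of the 32 genes, from 3.31 to 4.54. Most reads of this sequence were given to another locus. Gm10177, a processed pseudogene at chr9:37252922-37253365 on the plus strand of GRCm38, has 94.2% of its 31-base words in Sec61g, and it was listed at 232 TPM in naive and 970.1 TPM in plasma cells. Summed with it, Sec61g stood at 233 and 983 TPM with a ratio of 3.06. The 2 loci cannot be separated in these values. Exons of Srpr, Spcs1 and Spcs3 also overlap listed genes on the opposite strand, namely Fam118b and Tirap, Glt8d1 and Asb5, and whether strand was used in the quantification is not known here. Sec62 and Sec63 serve chains that enter after translation, and Sec63 also recruits the chaperone Hspa5. Sec62 was at 44.4 TPM in naive and 36.9 TPM in plasma cells, and Sec63 at 40.6 and 39.1 TPM.

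All 4 TRAP genes were higher, and their median centred ratio of 3.10 was the largest of the 6 groups. TRAP sits beside Sec61 and helps chains with weak signal peptides. Ssr2, the beta subunit, lies at chr3:88575876-88588419 on the plus strand of GRCm38. It stood at 82.0 TPM in naive and 502 TPM in plasma cells, or 6.13 times as high, with a ratio of 3.59. Ssr4, the delta subunit on chromosome X, stood at 112 and 527 TPM with a ratio of 3.21. Ssr3, the gamma subunit, stood at 77.4 and 311 TPM with a ratio of 2.98. Ssr1, the alpha subunit, was lower than the others in both libraries, with 62.3 and 185 TPM and a ratio of 2.54. The highest of the 4 was 1.80 times the lowest in naive and 2.85 times in plasma cells.

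Signal peptidase was higher in 4 of its 5 genes, and its interchangeable catalytic subunits Sec11a and Sec11c separated. Among the 32 genes as listed, Sec11c was the most abundant in both libraries, with 225 TPM (naive) and 739 TPM (plasma). Sec61g summed with Gm10177, from which it cannot be separated, was above Sec11c in both, at 233 and 983 TPM. The centred ratio of Sec11c was 2.70. Sec11a stood at 90.1 and 79.1 TPM with a ratio of 0.80, but passed the call on estimated counts, at 1.43 with TMM factors and 1.10 when centred, which makes it 5 of 5. The accessory subunits were close to each other in their ratios. Spcs1 stood at 94.3 and 296 TPM, a ratio of 2.63. Spcs2 stood at 118 and 360.4 TPM, a ratio of 2.59. Spcs3, which the mammalian enzyme needs for activity, stood at 55.8 and 164 TPM, a ratio of 2.53. Hm13, the intramembrane protease that cuts signal peptides after their release, stood at 69.9 TPM in naive and 425 TPM in plasma cells, or 6.09 times as high, with a ratio of 3.57. On estimated counts its ratio was 3.33, with an interval of 3.27 to 3.38.

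The 2 Tram genes differed from each other. Tram1, which contacts chains entering the channel, stood at 98.3 TPM in naive and 96.5 TPM in plasma cells, a centred ratio of 0.96 just under the call, and 1.01 on centred counts. Tram2, a homolog studied for its part in collagen secretion, was low but higher in plasma, with 10.98 and 25.6 TPM and a ratio of 2.14. Tram1 at 0.96 and Sec63 at 0.93 lay nearest to the call from outside, and Srp68 at 1.23 lay nearest from inside.

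None of the 5 tail-anchor genes was called, and all 5 had less TPM in the plasma library. Their median centred ratio was 0.46, while before centring their ratios ran from -0.45 to -1.70, so the direction of Sgta, Get4 and Asna1 depends on the centring. That of Bag6 depends on the scaling, since its ratio was 0.15 with TMM factors. Without centring Wrb and Bag6 were called lower, at -1.70 and -1.22. Wrb was also called lower, at -1.06, with a pseudocount of 0.1 TPM and when centred on genes with at least 20 TPM. Sgta, the chaperone that first takes up tail anchors, stood at 39.0 TPM in naive and 28.2 TPM in plasma cells. Bag6, the scaffold that hands them on or sends faulty proteins to degradation, stood at 103 and 43.5 TPM, with a centred ratio of -0.23. Get4, which bridges the scaffold and the targeting ATPase, stood at 59.4 and 40.8 TPM. Asna1, that ATPase, stood at 55.7 and 40.6 TPM, and its ER receptor subunit Wrb at 8.65 and 1.96 TPM, with a centred ratio of -0.72.

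**Figure D2:**
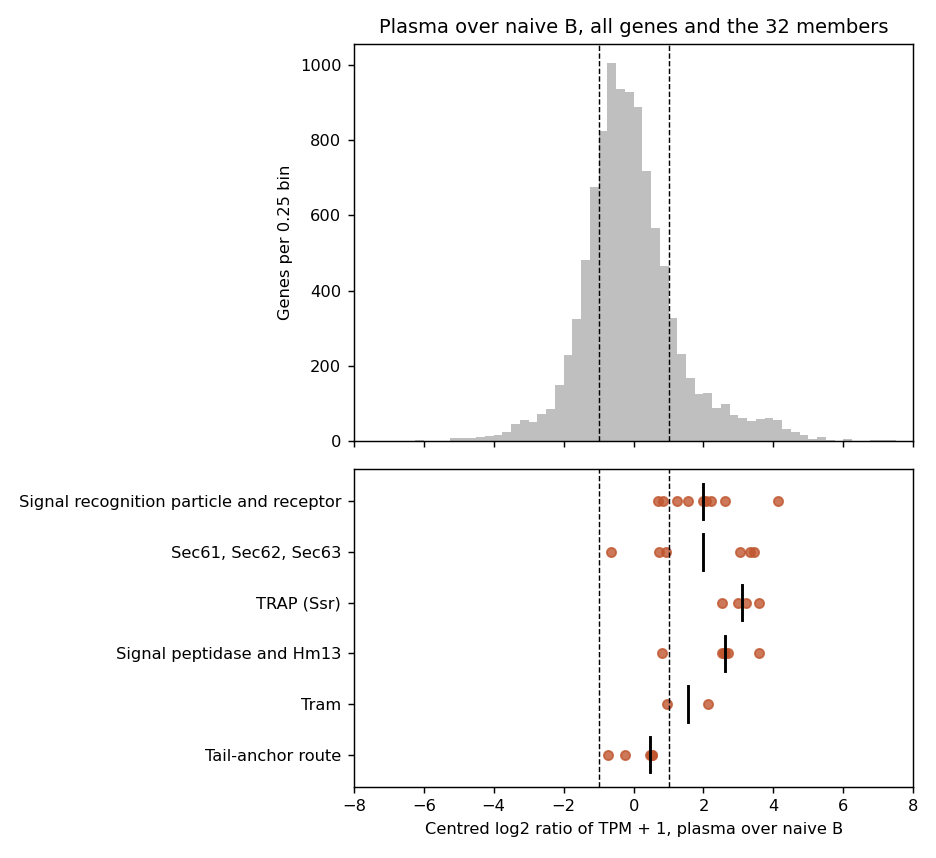
Upper panel, number of genes per bin of 0.25 in the centred log2 ratio (plasma over naive) for the 10219 genes that reached 5 TPM in either library; lower panel, the same ratio for each of the 32 genes by group, with vertical bars at the group medians and dashed lines at -1 and 1. The median is 3.10 for TRAP, 2.61 for signal peptidase with Hm13 and 0.46 for the tail-anchor route.

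Other genes of the pathway were counted in 8 lists of 55 genes, which are given beside the 32. Chaperones and helpers at the lumenal side of the channel were higher in 7 of the 8 that passed the level filter, with a median centred ratio of 2.39. Hyou1, the nucleotide exchange factor of the lumenal Hsp70, had a ratio of 3.27, Hspa5, that Hsp70 itself, 3.22 and Dnajb11, a lumenal J protein, 2.57. Of the oligosaccharyltransferase genes, which add N-glycans to chains in the channel, 10 of 12 were higher with a median of 2.55. Ddost had 3.36, Rpn1 3.35 and Rpn2 3.00, and Stt3a and Stt3b, the catalytic subunits that work with and after translocation, had 2.56 and -0.01. Of 4 genes of ribosome docking and ER sheets, 3 were higher, with Ckap4 at 3.73, Lrrc59 at 2.63 and Rrbp1 at 2.60, and Ktn1 had -0.08.

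The remaining lists, among them other ways into the membrane, held smaller shares of higher genes than the lists above. The multipass translocon had 3 of 5, close to the 20 of 32 in the genes described here. Nomo1 stood at 1.51, Tmem147 at 1.48 and Tmco1 at 1.11, beside Ncln at -0.97. The ER membrane protein complex, an insertase, had 2 of 10 and a median of 0.39. Emc4 stood at 1.12, Emc7 at 1.04 and Emc9 at 0.98. Further insertion factors had 0 of 6 and a median of -0.15, with Tmem208 at 0.40, Ubqln4 at -0.31 and Ubqln1 at -0.28. The nascent-chain complex with Srp54c had 0 of 4, with Btf3 at 0.89, Naca at 0.72 and Srp54c at 0.65. Relatives of Hm13 had 0 of 3 higher and 1 lower, with Sppl2b at -1.43, Sppl3 at -0.54 and Sppl2a at 0.22. These counts stand beside the same 16.0% higher and 22.1% lower over all genes.

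**Figure D3:**
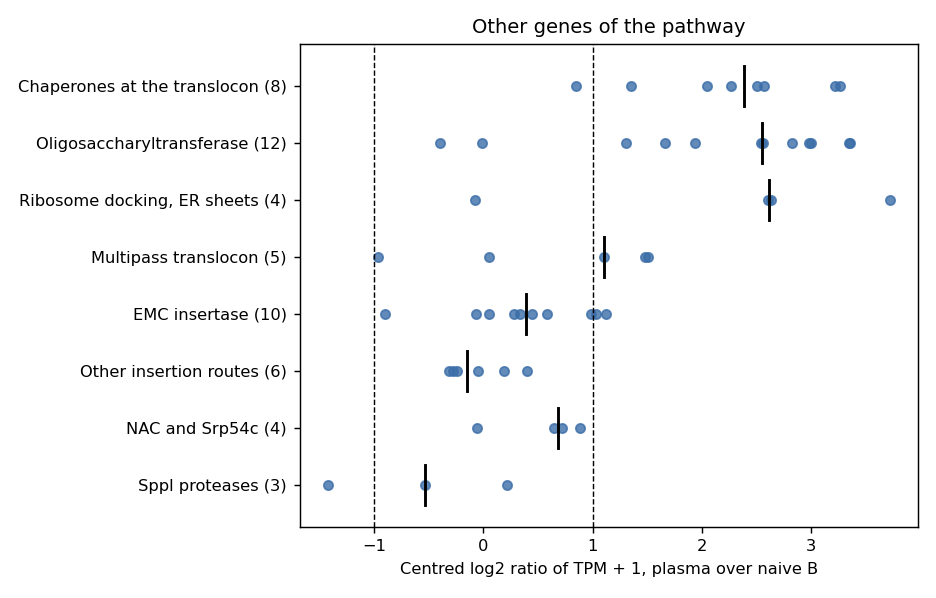
Centred log2 ratio (plasma over naive) for each gene that reached 5 TPM in either library in 8 lists of other pathway genes, with the number of genes in parentheses, vertical bars at the medians and dashed lines at -1 and 1. The medians run from 2.62 for ribosome docking to -0.54 for the Sppl proteases.

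Transcript choice was compared within genes. Among the 19 of the 32 genes that reached 5 TPM in each library and have several listed transcripts, only Sec11a had a transcript whose share of the gene's TPM differed by at least 20 percentage points, beside 17.9% of 5079 genes. Its transcript Sec11a-001, with 1345 nt and 179 codons, held 36.9% of TPM in naive and 70.3% in plasma cells. Sec11a-004, with 759 nt and 93 codons, held 38.8% and 15.5%. Thus the transcript Sec11a-001 stood at 33.3 and 55.6 TPM although the summed level of Sec11a was lower in plasma. Sec11a overlaps Nmb on the same strand.

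The long 3′ UTR forms of Hm13, Ssr1 and Get4 held smaller shares in plasma cells. H13-001, a transcript of 5204 nt, held 36.1% of the estimated counts of Hm13 in naive and 4.61% in plasma cells, while its own estimated counts were 1115 and 1297. The TPM-weighted mean 3′ UTR of Hm13 was 928 nt and 469 nt. For Ssr1 it was 2624 and 1854 nt, and for Get4 503 and 371 nt. These 3 were the genes shorter by at least 0.25 on the log2 scale among 17 of the 32 with a value, beside 15.8% of 4557 genes, a share near that background. None of the 17 was longer by as much, beside 3.45%. Shares are kallisto's estimates over annotated transcripts, and the mean lengths were computed after values had been seen.

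**Figure D4:**
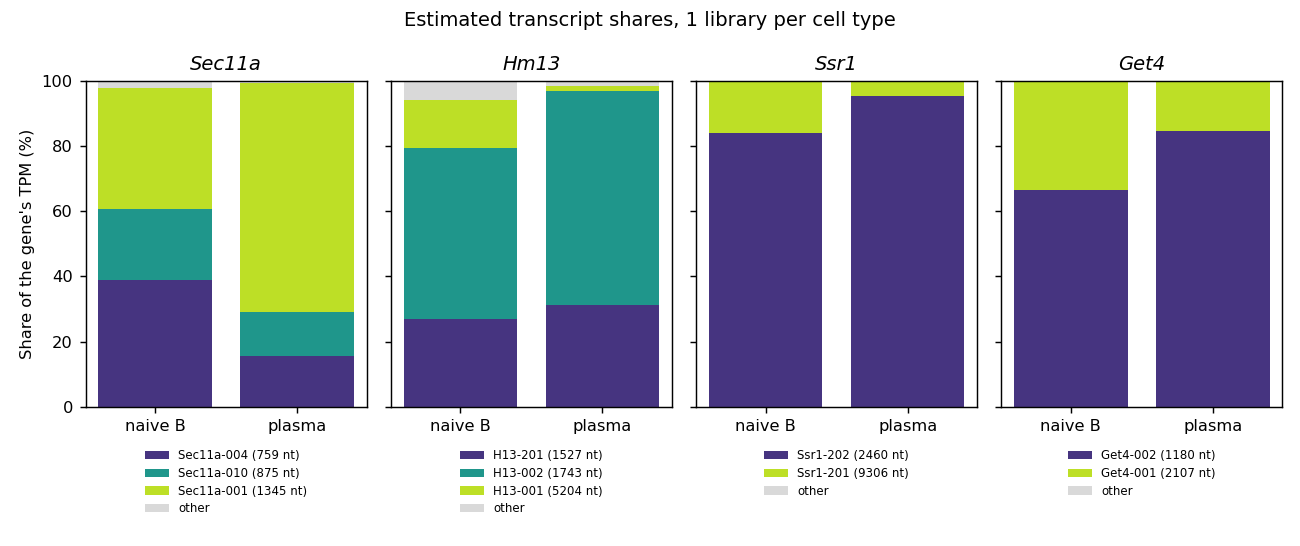
Share of each gene's TPM by transcript, in percent, for Sec11a, Hm13, Ssr1 and Get4 in the naive B and plasma libraries, with transcript lengths in the keys and grey for all others. In Sec11a the transcript of 1345 nt goes from 36.9% to 70.3%, and in the others the longest transcript holds less in plasma cells.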

How the data were processed

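RNA was measured in 1 naive B and 1 plasma library, grouped by sample titles. Per the labels' protocols, mRNA was bead-purified and copied with random hexamers, with dUTP marking the second strand. Per the submitters' processing notes kallisto was used and the build was mm9. For its version, index, strand setting and filters, nothing is stated in the sources used here. Per the file headers, each deposited file gives the authors' TPM and estimated counts for every transcript. The effective length equals the length minus 49 in 60997 of 61112 transcripts, the same in both libraries, so lengths were not corrected for fragment size per library.

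Transcripts were summed by Ensembl gene ID. Exact Clopper-Pearson intervals of 95% on rounded estimated counts, centred likewise, reflect counting error alone and run from 0.0428 to 0.618 in half-width on the log2 scale. They treat each estimated count as a separate molecule. PCR copies cannot be recognised without molecular identifiers, and the division of shared reads is not covered, so the intervals may be too narrow. Shared 31-base words and places came from GENCODE vM21 on GRCm38. Srp54a has no place there, and transcripts of 30 of the 32 genes were matched for shared words, 25 with less than 1% of words shared and 5 with over 10%. The named genes were all 32, and in each other list the 3 with the largest absolute ratio, and Emc, Sppl and some other genes were matched by gene ID because the files use older symbols. Stt3a, Stt3b, Ktn1 and Ncln were named after their values were seen. Python 3.11.15 (pandas 2.3.3, numpy 2.4.6, scipy 1.17.1, matplotlib 3.10.9) and R 4.3.3 with edgeR 4.0.16, for TMM factors of 1.28 and 0.783, were used. The calling of genes, which is by size of change with no statistical test, was run on simulated data. These had counting error alone and few changed genes besides immunoglobulin genes, so they cannot show whether the centring holds for these libraries. The members and lists were chosen with earlier results of these data known. ATAC peaks and contact maps are on mm9, for which no annotation was used here, so they and the ChIP-seq samples were not analysed here. The summed level of the naive B markers is not reported here, and Fcer2a and Pax5 were named in its place after their values were seen.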

Additional observations from a re-analysis of the deposited data

How the results depend on the processing

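Each group has 1 library, so no library could be left out, and the estimates rest on depth for counting error alone. No paired analysis was possible because each group holds 1 library and no test was made. The call of higher held for 18 to 26 of the 32 genes over the settings tried, and 18 of the 20 stayed at 1 or more in all that gave a value. Without centring the split was 18 higher and 3 lower in place of 20 and 0. In addition 1 gene, Wrb, was called lower with a pseudocount of 0.1 TPM and also when centred on genes with at least 20 TPM. The median of 2.11 became 1.12 without centring, 2.52 with TMM factors, 2.55 with median-of-ratios size factors, 2.18 with centred CPM, 2.19 and 1.85 with pseudocounts of 0.1 and 5 TPM, 1.77 when centred on genes with at least 20 TPM and 2.22 without immunoglobulin and mitochondrial genes. Over all genes, 1634 were higher and 2257 lower, against 792 and 5890 without centring, 2248 and 1716 with TMM factors, 2312 and 1664 with size factors, 1213 and 3471 when centred on genes with at least 20 TPM, 1387 and 1239 with a pseudocount of 5 TPM and 3680 and 2385 with no filter on low values. The count of genes with a shifted transcript share was 5 of 19 by estimated counts, beside 16.8% of all genes, and 9 of 19 at 10 percentage points, beside 46.1%, in place of 1. The cause of these differences was not tested. Of 414 single values, 211 moved by more than their counting error and 12 changed sign, 9 of them without centring and 0 of them in the 20 genes called higher. Summing genes that share sequence was added after seeing the data.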
